A study of Mustela putorius furo and Mus musculus with 4 samples.

Results

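The expression of 10 genes of bone morphogenetic protein (BMP) signalling was compared between cultured ferret and mouse cortical astrocytes, namely the ligand Bmp4, the receptors Bmpr1a, Bmpr1b and Bmpr2, the signal transducers Smad1 and Smad5, and the target genes Id1, Id2, Id3 and Id4. The genes were chosen by symbol, without regard to case. All 10 were found in the mouse values and 9 in the ferret values, where Id4 was not analysed here. The 9 genes with a symbol in both species belong to 13373 shared symbols, and all 9 were among the 10204 shared symbols with a mean of at least 1 FPKM in at least one species. Levels are in FPKM, which divides a gene's sequenced fragments by its exon length and by the library's mapped fragments.

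The study holds 2 libraries of ferret astrocytes and 2 of mouse astrocytes. Ferret cells came from the cortex on postnatal day 1 and mouse cells, of the ICR strain, from the cortex on postnatal day 1 to 3. In both species mixed glia grew for 14 days with 10% fetal bovine serum before shaking, and the replated astrocytes were moved to a serum-free medium with heparin-binding EGF-like growth factor some days before RNA was taken. The cells of a ferret pup were spread over several flasks whereas those of several mouse pups were pooled, and the labels do not say whether the 2 libraries of a species came from separate cultures, so the p-values measure the spread between these libraries, which may be technical.

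BMP ligands are secreted dimers that bring together a type I receptor, such as BMPR1A or BMPR1B, and the type II receptor BMPR2. The type II receptor activates the type I receptor, which phosphorylates SMAD1 and SMAD5, and these enter the nucleus with SMAD4. Among their best known targets are the Id genes, whose products bind basic helix-loop-helix (bHLH) transcription factors and keep them from DNA. In the developing cortex BMP signalling favours the astrocytic over the neuronal and oligodendroglial fate.

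The 4 libraries were of similar composition within a species, with a median absolute log2 difference between duplicates of 0.081 for ferret and 0.065 for mouse. FPKM does not give the number of fragments behind each value, and the study's read counts were not used here. The steps between low values give only the ratio of depths, 1.17 for ferret replicate 1 against 2 and 0.835 for mouse replicate 1 against 2. Over all tested genes, the log2 difference (ferret minus mouse) had a median of -0.35 with FPKM as deposited, -0.01 after rescaling the libraries to equal sums (the mean of the 4 sums over the shared symbols) and 0.05 after quantile normalization. Of the 10 astrocyte markers examined, 9 had a mean of at least 1 FPKM in ferret and 10 in mouse. Their summed level was 3576 to 3674 FPKM in ferret and 3258 to 3530 in mouse. Even so, 6 of the 10 were called lower and 1 higher in ferret, beside 30.1% and 13.1% of all tested genes. Several marker lists of other cells differed more. The 10 shared microglial markers summed to 5.56 to 6.46 FPKM in ferret, where 8 of the 10 had a mean under 1 and Cx3cr1 was listed at 0, and to 593 to 605 in mouse. The 8 fibroblast markers summed to 111 to 125 FPKM in ferret, where Dpt was listed at 0, and to 876 to 923 in mouse. The 7 endothelial markers summed to 0.513 to 0.569 FPKM in ferret, where Pecam1, Cdh5 and Tek were listed at 0, and to 28.2 to 28.8 in mouse, where Cldn5 was listed at 0 and Cdh5 alone had 22.0 and 22.5. The 8 oligodendrocyte lineage markers summed to 162 to 180 FPKM in ferret and 57.9 to 58.0 in mouse. Of the 6 tested, 3 were called higher in ferret and 0 lower, beside 13.1% and 30.1% of all tested genes. Cnp had 79.9 and 92.0 FPKM in ferret and 45.6 and 47.7 in mouse, short of a call. Mbp had 28.5 and 33.1 FPKM in ferret and 2.95 and 1.78 in mouse. Sox10 had 26.3 and 30.9 FPKM in ferret and 0.231 and 0.304 in mouse, and reached a mean of 1 FPKM in ferret alone. The 6 neuronal markers summed to 28.0 to 28.2 FPKM in ferret and 32.2 to 33.5 in mouse. Of the 4 neuronal markers tested, 3 were called higher in ferret and 0 lower, beside 13.1% and 30.1% of all tested genes. The remaining marker, Map2, had 18.8 and 19.0 FPKM in ferret and 30.4 and 31.3 in mouse. It was lower in ferret but short of a call (log2 difference -0.68, adjusted p = 2.23e-06 by limma).

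Of the 9 genes tested, 5 were lower in ferret astrocytes and 0 were higher, at an adjusted p under 0.05 (limma, Benjamini-Hochberg over all 10204 genes) and an absolute log2 difference above 1. Among all tested genes this rule called 30.1% lower and 13.1% higher. The lower genes were Bmp4, Bmpr1a, Bmpr1b, Id2 and Id3, of which Bmp4 passed the filter through mouse alone. Bmpr2, Smad1, Smad5 and Id1 stayed within this limit. By adjusted p alone, 6 were lower and 0 higher in ferret, against 56.2% and 32.4% of all tested genes, and the count of higher genes was also 0 at an unadjusted p under 0.05. The libraries of the species did not overlap for 8 of the 9 genes, and for 94.1% of all tested genes. Both ferret libraries were the lower ones for 7 of these and the higher ones for 1, where the shares over all tested genes were 59% and 35.1%. After rescaling the libraries to a sum of 1000000, to the mean of their 4 sums or by quantiles, 3 of the 9 genes were called lower, against 24.9%, 21.7% and 20.4% of all tested genes. By adjusted p alone, 4 of the 9 were then higher in ferret and 5 lower under each of these scalings. Of all tested genes, 43.7%, 43.8% and 45.6% were then higher and 44.4%, 44.5% and 42.8% lower. The count of 0 higher genes thus holds for FPKM as deposited with the filter on low values, and was 1 without this filter. The median log2 difference of the 9 genes was -1.01. In bulk RNA, fewer cells that express a gene and less of its RNA per cell cannot be told apart.

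**Figure D1:**
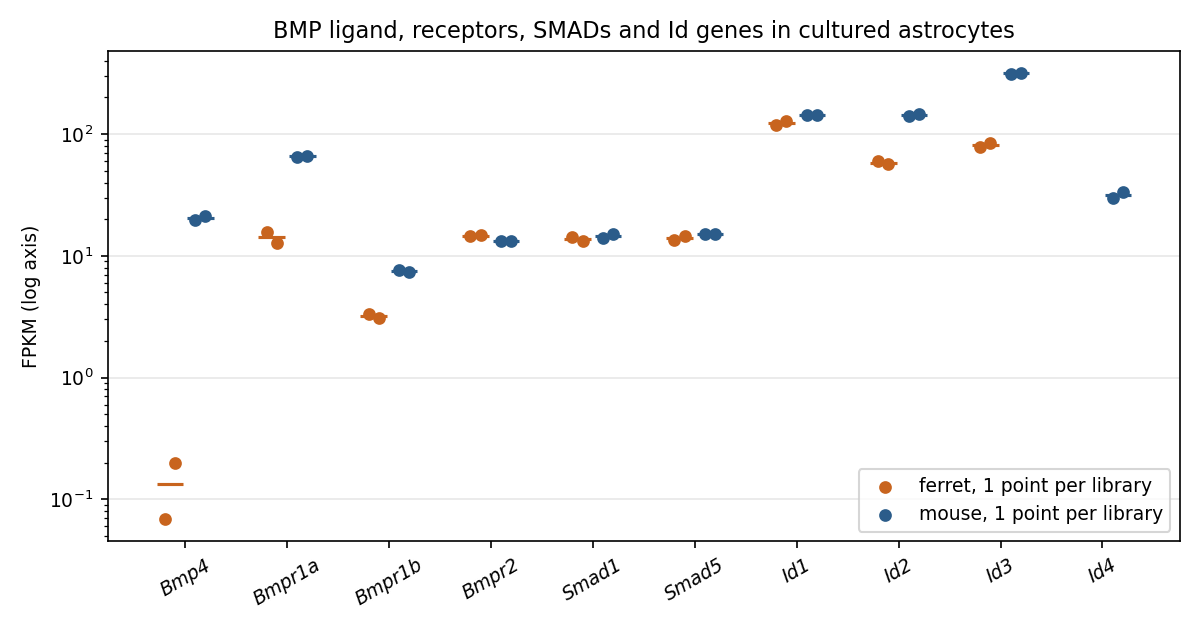
FPKM (log axis) of the 10 genes in each library, with ferret libraries in orange, mouse libraries in blue and a bar at the mean of the 2 libraries of a species. Bmp4, Bmpr1a, Bmpr1b, Id2 and Id3 sit lower in both ferret libraries, Bmpr2, Smad1 and Smad5 lie close together in the 4 libraries, and Id4 is plotted for mouse alone.

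Bmp4 encodes a secreted ligand that, in cell culture, drives neural precursors towards astrocytes. Ferret astrocytes had 0.0691 and 0.197 FPKM, and mouse astrocytes 19.6 and 21.2 FPKM. Ferret Bmp4 thus stood near the bottom of the measured range, at the 16.9 and 22.1 percentile of the shared symbols in its libraries, and mouse Bmp4 at the 75.1 and 76.6 percentile. The log2 difference was -4.24 ± 0.086 (SE, limma adjusted p = 9.08e-11), and 1.02% of all tested genes had a lower value. The ferret mean of 0.133 FPKM was under the filter of 1 FPKM, so Bmp4 entered the test through mouse alone. Its direction therefore followed from the filter, and the p-value and rank are no separate support for it. The mouse mean was 153 times the ferret mean, a ratio that rests on ferret values too low to be precise, since these differed 2.85-fold between the duplicates. With a pseudocount of 0.1 in place of 1 the log2 difference was -6.51. In the mouse genome (GRCm38) Bmp4 spans positions 46383520 to 46390669 of chromosome 14, minus strand, and has 4 exons in the transcript examined.

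The genes whose values over the 4 libraries were closest to those of Bmp4, by the Euclidean distance between log2(FPKM + 1) values, were Itgb2 (distance 0.16), Igf2 (0.19) and Ms4a7 (0.25). Itgb2 encodes an integrin subunit of leukocytes and microglia, Igf2 an insulin-like growth factor, and Ms4a7 a membrane protein of macrophages. Itgb2 had 0.137 and 0.128 FPKM in ferret and 20.7 and 20.0 in mouse. Igf2 had 0.162 and 0.0876 FPKM in ferret and 18.9 and 21.9 in mouse. Bmp4 was thus low in the same libraries in which the summed microglial, fibroblast and endothelial markers were low, and the part of these cells in its difference was not tested.

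Of the type I receptors, Bmpr1a had 15.7 and 12.9 FPKM in ferret and 65.0 and 66.0 FPKM in mouse. Both mouse libraries were above both ferret libraries by far more than the duplicates differed, which was 1.22-fold in ferret and 1.01-fold in mouse. The log2 difference was -2.13 ± 0.085 (SE, limma adjusted p = 6.34e-09), and the mouse mean was 4.59 times the ferret mean. Bmpr1b, the second type I receptor, was the lower of the pair in each library, with 3.32 and 3.10 FPKM in ferret and 7.58 and 7.40 FPKM in mouse. The species did not overlap for this gene either, with a log2 difference of -1.01 ± 0.074 (SE, limma adjusted p = 5.40e-07). This value lay at the limit of 1 required for a call, and it was -0.97 without ferret replicate 2 and -0.996 without mouse replicate 1, so that the call was lost there while the adjusted p stayed under 0.05. After rescaling to equal sums it was -0.69 and after quantile normalization -0.60, again lower at an adjusted p under 0.05 but short of a call.

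The type II receptor Bmpr2 had 14.4 and 14.7 FPKM in ferret and 13.3 and 13.1 FPKM in mouse. The ferret libraries were slightly above the mouse libraries, with a log2 difference of 0.13 ± 0.063 (SE, limma adjusted p = 0.0721) and a 95% interval of -0.01 to 0.28. As deposited this did not pass the test, but without the filter on low values the adjusted p was 0.0262 (limma). Relative to the median of all genes Bmpr2 stood 0.48 higher in ferret. After rescaling to equal sums its log2 difference was 0.50 (adjusted p = 1.11e-04 by limma) and after quantile normalization 0.55 (adjusted p = 5.86e-05), higher in ferret in both cases and short of a log2 difference of 1. In the mouse genome (GRCm38) Bmpr1a spans positions 34410734 to 34503341 of chromosome 14 and Bmpr1b positions 141837136 to 142169425 of chromosome 3, both on the minus strand, and Bmpr2 spans positions 59763400 to 59879014 of chromosome 1 on the plus strand.

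The receptors were therefore present in different proportions in the species. Of the total FPKM of the 3 receptors, Bmpr1a held 46.9% and 41.9% in ferret and 75.7% and 76.3% in mouse. Bmpr2 held 43.1% and 48.0% in ferret and 15.5% and 15.2% in mouse. Thus type I receptor Bmpr1a and type II receptor Bmpr2 were at about the same level in ferret astrocytes, at 1.09 and 0.872 FPKM of Bmpr1a per FPKM of Bmpr2, whereas Bmpr1a exceeded Bmpr2 in mouse astrocytes at 4.89 and 5.02. Of the sum of Bmpr1a and Bmpr1b, which leaves out the further type I receptor Acvr1, Bmpr1b took 17.5% and 19.4% in ferret and 10.4% and 10.1% in mouse. Such shares within a library do not depend on scaling between libraries, although the gene models of each species enter them. With 2 libraries against 2, an exact two-sided permutation test of a share cannot give a p under 0.333, so no test was made.

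**Figure D2:**
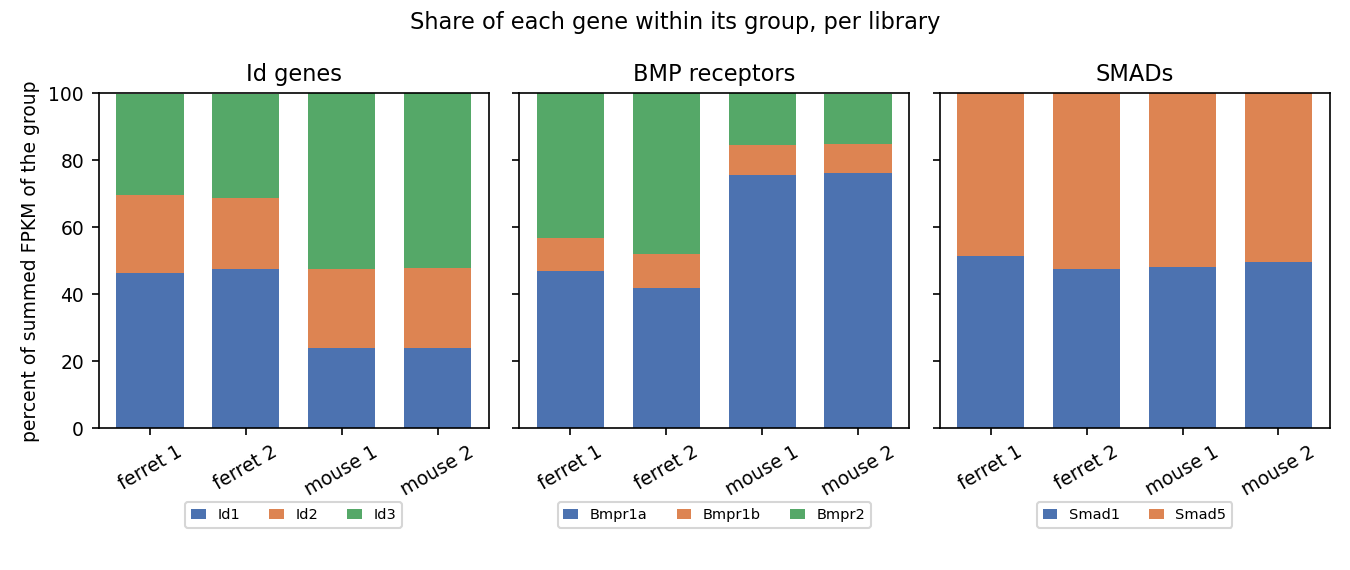
Share of each gene in the summed FPKM of its group (percent) for the 2 ferret and 2 mouse libraries, with 1 stacked bar per library. Id1 takes 46.3% and 47.7% of the 3 shared Id genes in ferret and 23.8% in both mouse libraries, Bmpr2 takes a larger share of the receptors in ferret, and Smad1 and Smad5 divide almost evenly in the 4 libraries.

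Smad1 and Smad5 encode the receptor-activated SMADs of the BMP branch. Smad1 had 14.3 and 13.3 FPKM in ferret and 14.1 and 15.0 FPKM in mouse, and its libraries overlapped between the species. The log2 difference was -0.07 ± 0.069 (SE, limma adjusted p = 0.336) with a 95% interval of -0.23 to 0.08. Smad5 had 13.5 and 14.7 FPKM in ferret and 15.2 and 15.2 FPKM in mouse. Its ferret libraries lay just under the mouse libraries, with a log2 difference of -0.10 ± 0.067 (SE, limma adjusted p = 0.176) and a 95% interval of -0.25 to 0.05. Relative to the median of all genes the SMADs stood 0.28 and 0.25 higher in ferret, and with rescaling to equal sums the sign of both turned, to 0.29 for Smad1 and 0.26 for Smad5 (adjusted p = 0.00521 and 0.00322 by limma).

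Smad1 formed 51.3% and 47.6% of the sum of both SMADs in ferret and 48.2% and 49.6% in mouse. The pair thus stood near 1 to 1 in each library, with less spread between the species than between the ferret duplicates. In the mouse genome (GRCm38) Smad1 spans positions 79338395 to 79399518 of chromosome 8, minus strand, and Smad5 positions 56703010 to 56742377 of chromosome 13, plus strand. Although the proteins are close relatives, the longest run of identical bases in the coding sequences of the mouse genes was 17, and no stretch of 50 bases of either gene's transcript occurred in a transcript of another mouse gene.

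The Id genes encode small helix-loop-helix proteins that lack the basic, DNA-binding part of their partners. Since the 4 genes are paralogs that were measured side by side, the stretch of their mouse coding sequences that is most alike is given here, 90 bases of exon 1 from GENCODE M21 transcripts on GRCm38, 5′ to 3′ on the coding strand, with bases that are identical in the 4 genes in capitals.
Id1 (chr2:152736551-152736640, plus strand): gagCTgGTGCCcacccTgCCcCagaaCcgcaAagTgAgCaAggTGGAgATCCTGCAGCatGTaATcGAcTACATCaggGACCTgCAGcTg
Id2 (chr12:25095780-25095869, minus strand): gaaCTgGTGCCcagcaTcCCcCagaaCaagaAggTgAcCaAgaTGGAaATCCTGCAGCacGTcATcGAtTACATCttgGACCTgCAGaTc
Id3 (chr4:136144035-136144124, plus strand): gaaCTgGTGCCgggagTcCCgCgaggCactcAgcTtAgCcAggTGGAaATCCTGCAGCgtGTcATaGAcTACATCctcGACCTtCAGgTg
Id4 (chr13:48261726-48261815, plus strand): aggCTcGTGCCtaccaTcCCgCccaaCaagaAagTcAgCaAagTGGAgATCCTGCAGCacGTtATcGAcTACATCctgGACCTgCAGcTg

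In this window 52 of 90 bases (57.8%) were the same in the 4 genes, and the longest run shared by all was 10 bases. Id1 and Id2 matched at 80.0% of the positions, whereas Id3 matched Id1 at 67.8%. Over the whole coding sequences the longest identical run of any pair was 17 bases, between Id1 and Id4. No stretch of 50 bases of the Id1, Id3 or Id4 transcript occurred in another mouse gene, and for Id2 8 of 1221 such stretches did, in the processed pseudogene Gm6175. The mouse Id transcripts thus had no stretch of 50 bases in common with one another, while the ferret sequences were not analysed here.

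Id1 was the highest of the 9 genes in ferret astrocytes, with 119 and 129 FPKM, and had 142 and 145 FPKM in mouse astrocytes. Although both ferret libraries were below both mouse libraries, the log2 difference was only -0.21 ± 0.061 (SE, limma adjusted p = 0.00843), which was smaller than the limit of a call, and the adjusted p rose to 0.0755 and 0.103 without mouse replicate 1 or 2. After rescaling to equal sums Id1 was higher in ferret by 0.18 (adjusted p = 0.00463 by limma) and after quantile normalization by 0.16, so that the direction for this gene depended on the scaling.

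Id2 had 60.2 and 56.6 FPKM in ferret and 141 and 145 FPKM in mouse. The ferret libraries were clearly the lower ones, with a log2 difference of -1.28 ± 0.059 (SE, limma adjusted p = 1.81e-08). It was -0.89 after rescaling to equal sums and -0.94 after quantile normalization, lower at an adjusted p under 0.05 in each case but then short of a call. Id3 had 77.8 and 84.7 FPKM in ferret and 313 and 317 FPKM in mouse. Of the Id genes it differed most, with a log2 difference of -1.94 ± 0.062 (SE, limma adjusted p = 1.34e-09), a mouse mean of 3.88 times the ferret mean and a call under each scaling, where it was -1.56 after rescaling to equal sums and -1.58 after quantile normalization. Id4, measured here in mouse alone, had 29.7 and 33.4 FPKM, the lowest of the Id genes, and made up 4.75% and 5.22% of the sum of the 4.

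The order of the Id genes therefore differed between the species. In ferret the levels fell from Id1 over Id3 to Id2, with no overlap between neighbours. In mouse Id3 was the highest, and Id1 and Id2 overlapped. Within the sum of the 3 genes measured in both species, Id1 took 46.3% and 47.7% in ferret and 23.8% and 23.8% in mouse, and Id3 took 30.3% and 31.4% in ferret and 52.5% and 52.3% in mouse. Id2 took 23.4% and 20.96% in ferret and 23.6% and 23.9% in mouse, so that its share was similar, while Id1 held the largest share in ferret and Id3 in mouse. The ratio of Id3 to Id1 was 0.654 and 0.658 in ferret and 2.203 and 2.193 in mouse, far apart relative to its spread between duplicates. This ratio and the shares need no scaling between libraries, although the gene models of each species enter them. The sum of the 3 genes was 257 and 270 FPKM in ferret and 596 and 607 FPKM in mouse. In the mouse genome (GRCm38) Id1 spans positions 152736251 to 152737410 of chromosome 2, Id3 positions 136143497 to 136145755 of chromosome 4 and Id4 positions 48261228 to 48266026 of chromosome 13, all on the plus strand, and Id2 spans positions 25093799 to 25097140 of chromosome 12 on the minus strand.

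Across the pathway, Id1, Id2 and Id3 stood above the receptors and SMADs that act before them in both species, whereas mouse Id4 (mean 31.6 FPKM) stood below Bmpr1a (mean 65.5 FPKM). In ferret, Id1, Id2 and Id3 lay between the 93.9 and 98.2 percentile of the shared symbols, Bmpr2, Bmpr1a, Smad5 and Smad1 followed with means from 13.8 to 14.6 FPKM and could not be ordered beyond the spread of the duplicates, and Bmpr1b (mean 3.21) and Bmp4 (mean 0.133) came last. In mouse, Id1, Id2 and Id3 lay between the 97.8 and 99.2 percentile and were followed by Bmpr1a at the 93.3 and 93.4 percentile, Bmp4, Smad5, Smad1, Bmpr2 and Bmpr1b. Of the neighbours in the mouse order of these 9 genes, only Id1 and Id2 overlapped.

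**Figure D3:**
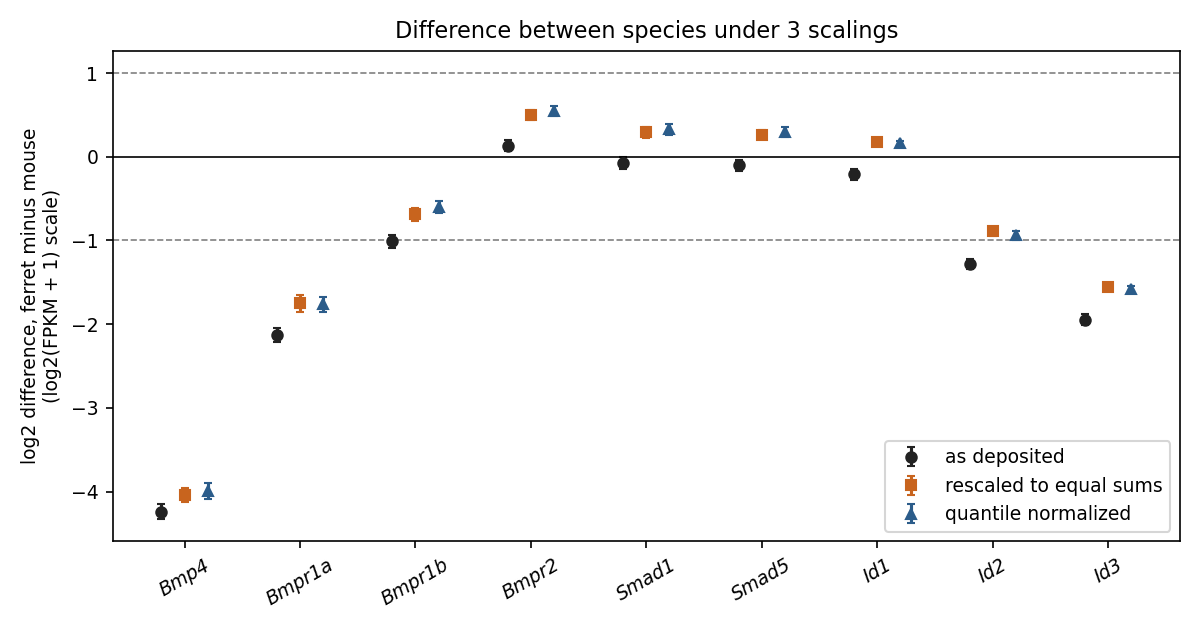
Log2 difference between ferret and mouse astrocytes (ferret minus mouse, on the log2(FPKM + 1) scale) of the 9 genes measured in both species, with standard errors from limma, for FPKM as deposited (black circles), rescaled to equal library sums (orange squares) and quantile normalized (blue triangles). Dashed lines mark the differences of 1 and -1 required for a call, and both rescalings shown move each gene upwards, so that Bmp4, Bmpr1a and Id3 remain under -1 while Id1, Smad1 and Smad5 cross 0.

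The other genes of the pathway were taken from 6 lists. Of 19 further BMP and growth differentiation factor genes, 16 had a symbol in both species, and 5 of these passed the filter and were tested. Of the 5, 1 was called higher and 4 lower in ferret, beside 13.1% and 30.1% of all tested genes. Their median log2 difference was -1.41, beside -0.35 for all genes. Bmp7, a ligand of the same receptors, was the higher one, with 14.8 and 14.8 FPKM in ferret and 1.35 and 1.93 in mouse (log2 difference 2.59, adjusted p = 6.05e-09 by limma). Bmp6, another such ligand, was lower, with 2.12 and 1.57 FPKM in ferret and 24.6 and 23.6 in mouse (log2 difference -3.15, adjusted p = 9.86e-10). The ligand genes thus differed in opposite directions, Bmp7 leading in ferret, and Bmp6 and Bmp4 in mouse. Bmp1, which in spite of its name encodes a protease that cleaves procollagen, had 6.99 and 7.37 FPKM in ferret and 48.9 and 47.6 in mouse (log2 difference -2.59). Gdf15, a stress-induced factor, had 1.69 and 1.75 FPKM in mouse and at most 0.0505 in ferret, and passed the filter through mouse alone.

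Of 14 tested antagonists and other extracellular modulators, 4 were higher and 4 were lower in ferret, beside 13.1% and 30.1% of all tested genes, with a median log2 difference of 0.20. Chrdl1, which encodes a secreted BMP antagonist of astrocytes, had 64.6 and 63.1 FPKM in ferret and 7.59 and 9.61 in mouse (log2 difference 2.76, adjusted p = 1.88e-09 by limma). Sostdc1, a secreted BMP and Wnt inhibitor, had 11.8 and 9.28 FPKM in ferret and 1.30 and 1.54 in mouse (log2 difference 2.25). Fst, or follistatin, an inhibitor of activins that also binds BMPs, had 11.7 and 10.0 FPKM in ferret and 2.02 and 2.36 in mouse (log2 difference 1.89). These inhibitors were higher in both ferret libraries than in both mouse libraries. Bmper, a secreted BMP-binding protein, went the other way, with 0.539 and 0.598 FPKM in ferret and 8.92 and 8.74 in mouse (log2 difference -2.65). Bmper passed the filter through mouse alone, so its direction followed from the filter. Nog, the antagonist noggin, which was chosen with its values in view, had 7.71 and 8.53 FPKM in ferret and 13.0 and 13.7 in mouse, a log2 difference of -0.66 that was short of a call.

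Of 11 further receptors and coreceptors tested, 5 were lower and 0 were higher in ferret by limma (0 also at an unadjusted p under 0.05), beside 30.1% and 13.1% of all tested genes, with a median log2 difference of -0.69. After rescaling to a sum of 1000000 or to the mean of the 4 sums 3 of the 11 were higher in ferret by adjusted p alone, and after quantile normalization 4, while 0 of them were called higher. Rgma, a BMP coreceptor, had 2.79 and 2.92 FPKM in ferret and 21.7 and 23.6 in mouse (log2 difference -2.62, adjusted p = 5.92e-10 by limma). Acvrl1 and Eng, which encode the type I receptor ALK1 and the coreceptor endoglin of endothelial cells, were at most 0.044 and 0.310 FPKM in ferret, and had 3.93 and 3.59 FPKM and 4.59 and 4.29 FPKM in mouse. Tgfbr3, the coreceptor betaglycan, had 0.502 and 0.453 FPKM in ferret and 4.52 and 4.64 in mouse. Acvrl1, Eng and Tgfbr3 passed the filter through mouse alone. The direction of their calls, which the count of 5 includes, therefore followed from the filter. The endothelial markers given above were low in the same ferret libraries, and their part in these differences was not tested.

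Of 17 further SMADs and SMAD regulators tested, 1 was higher and 6 were lower in ferret, with a median log2 difference of -0.47 beside -0.35 for all genes. The lower count was close to the 30.1% of all tested genes called lower, and 13.1% of these were called higher. The inhibitory SMADs were both among the lower ones. Smad6, which blocks BMP receptors, had 1.31 and 1.25 FPKM in ferret and 7.30 and 7.71 in mouse (log2 difference -1.90, adjusted p = 6.10e-09 by limma). Smad7, which blocks BMP and TGF-beta receptors, had 1.23 and 1.48 FPKM in ferret and 5.97 and 5.38 in mouse (log2 difference -1.50). Ppm1a, a phosphatase that acts on SMADs, was lower as well (log2 difference -1.63), whereas Ctdspl, a small phosphatase of the family that acts on the SMAD linker, had 24.6 and 24.6 FPKM in ferret and 4.90 and 4.91 in mouse (log2 difference 2.12). The count of higher genes in this list depended on the scaling and was 3 after rescaling to equal sums and 4 after quantile normalization.

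Of 10 tested BMP response genes other than the Id genes, 4 were called higher in ferret and 5 lower, with a median log2 difference of -1.03. Msx1 and Msx2, homeobox genes known as BMP targets, were lower. Msx1 had 1.15 and 0.949 FPKM in ferret and 9.82 and 9.19 in mouse (log2 difference -2.36), and Msx2 had 0.330 and 0.263 FPKM in ferret and 5.77 and 6.43 in mouse (log2 difference -2.45). The homeobox genes Dlx1 and Dlx2, which also mark the ventral forebrain, were higher in ferret. Dlx1 had 17.0 and 19.0 FPKM in ferret and 0.464 and 0.222 in mouse (log2 difference 3.83, adjusted p = 4.21e-10 by limma), and Dlx2 had 11.8 and 10.8 FPKM in ferret and 0.674 and 0.583 in mouse (log2 difference 2.91). Dlx1 and Dlx2 passed the filter through ferret alone, and Msx2 and Gata2, also called lower, through mouse alone. Their directions therefore followed from the filter, and their p-values are no separate support for them. The list thus held genes called in both directions, beside 13.1% of all tested genes called higher and 30.1% called lower.

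Genes of bHLH proteins that Id proteins bind were also called in both directions. Of 4 tested, Tcf4 and Tcf3 were called lower and Tcf12 higher in ferret, beside 30.1% and 13.1% of all tested genes. The median log2 difference over the 4 was -1.23, beside -0.35 for all genes. The remaining gene, Olig2, was lower in ferret but short of a call (log2 difference -0.82, adjusted p = 1.85e-06 by limma). Tcf4 had 23.4 and 22.2 FPKM in ferret and 121 and 134 in mouse (log2 difference -2.43, adjusted p = 5.54e-10 by limma). Tcf12 had 66.8 and 69.3 FPKM in ferret and 29.1 and 31.1 in mouse (log2 difference 1.15). Of these E proteins, Tcf12 was thus the highest in ferret and Tcf4 the highest in mouse.

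**Figure D4:**
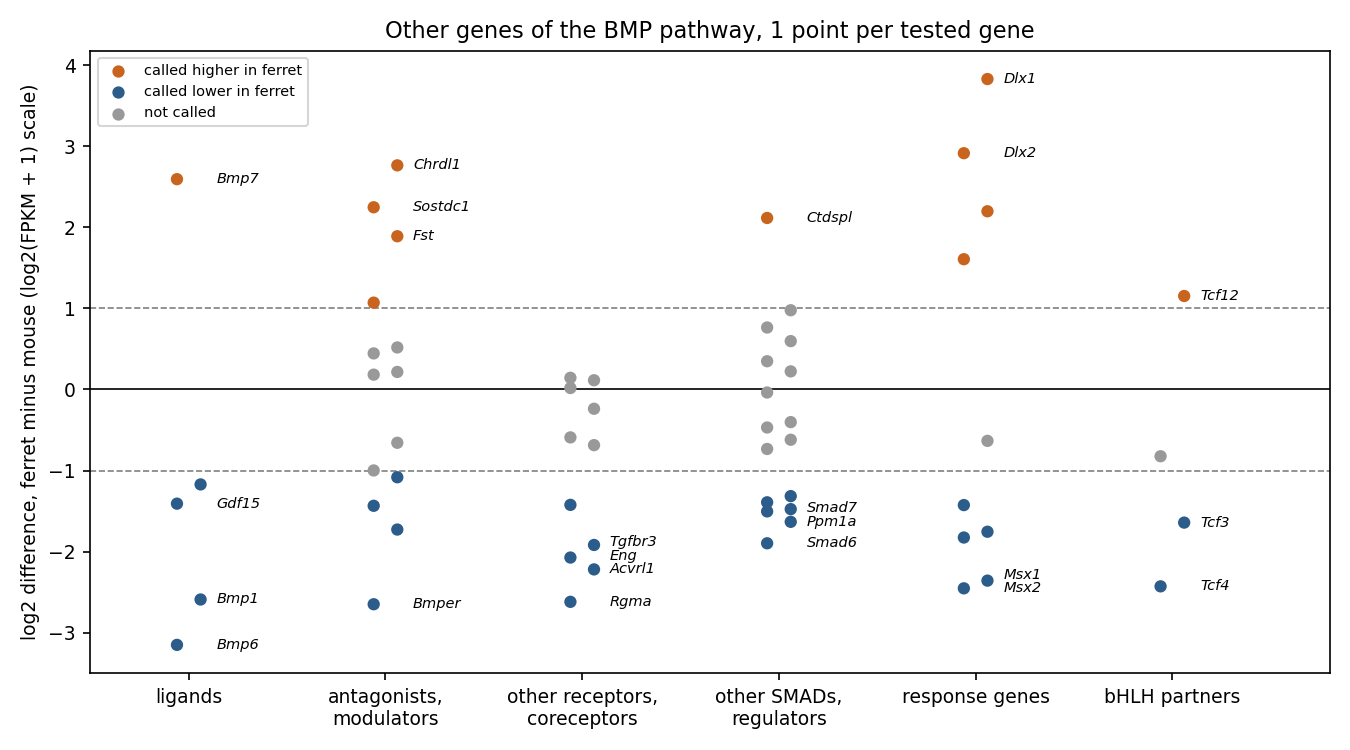
Log2 difference between ferret and mouse astrocytes (ferret minus mouse, log2(FPKM + 1) scale) of the tested genes of 6 lists, with 1 point per gene, orange where called higher in ferret, blue where called lower and grey where not called. Named genes are the up to 4 called genes of each list with the largest absolute difference, and every list but that of receptors and coreceptors holds genes called in both directions.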

How the data were processed

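Cultured astrocytes were profiled by RNA-seq in 4 libraries, 2 per species. The authors aligned paired-end reads of stranded, polyA-selected libraries with STAR (2.7.0f) to the genome of each species and deposited FPKM values per library, made with Cufflinks (2.2.1) on Ensembl gene models (mouse: GRCm38). These values are scaled within each library only, rest on separate gene models per species and hold no counts. The read counts that the study lists elsewhere were not used here, so depth was not assessed.

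Symbols were joined in upper case, taking the row with the highest species mean where a symbol had several (none of the genes followed here). Species were compared with limma (3.58.1, R 4.3.3, empirical Bayes with a trend) on log2(FPKM + 1), keeping genes that reached a mean of 1 FPKM in either species. The log2(FPKM + 1) scale understates changes of low genes. A gene under a mean of 1 FPKM in 1 species was tested only if it reached this mean in the other, so its direction followed from the filter. Among the pathway genes this held for Bmp4, Gdf15, Bmper, Acvrl1, Eng, Tgfbr3, Msx2 and Gata2, tested through mouse alone. It held for Dlx1, Dlx2 and Grem1 through ferret alone. Outside the pathway it held for Itgb2, Igf2 and Ms4a7 through mouse alone. It also held for cell type markers, such as Cdh5 and Tek through mouse alone and Sox10 and Gad1 through ferret alone. Calls required an adjusted p (Benjamini-Hochberg) under 0.05 and an absolute log2 difference above 1. The fit was tested on simulated data. Species, gene models and culture cannot be told apart.

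The genes and lists were chosen with earlier results of these data known. Named genes are the 10 genes and up to 4 called genes per pathway list with the largest absolute difference. Other pathway genes, such as Nog and Olig2, were named outside this rule. Cell type markers were named where listed at 0 in a species, and a few others with their values in view. The lists covered the pathway (6) and cell types (6). Alternatives were a pseudocount of 0.1, no filter, 3 other scalings, summed rows, no trend, the replicate number as a block and each library left out. Mouse coordinates and sequences come from GENCODE M21.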

Additional observations from a re-analysis of the deposited data

How the results depend on the processing

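With libraries brought to a sum of 1000000, to the mean of the 4 sums or to equal quantiles, the 5 genes called lower became 3 in each case, as Bmpr1b and Id2 fell short of a log2 difference of 1. The number of all genes called higher in ferret moved from 1336 to 2197 and 2080 with the first and last of these, and to 1954 with the second, where 2215 were called lower in place of 3069. Under the 3 in this order, the log2 difference turned from negative to 0.18, 0.18 and 0.16 for Id1, to 0.31, 0.29 and 0.33 for Smad1 and to 0.28, 0.26 and 0.30 for Smad5. Genes called higher among the further SMADs and their regulators numbered 1 as reported, 2 with a pseudocount of 0.1, and 4, 3 and 4 with the scalings. The cause was not tested. They numbered 1 to 2 when each library was left out (2 without mouse replicate 2), where the lone remaining library of a species is assumed to vary like the others, and 4 to 5 of the 9 genes followed were then called lower. Same-numbered libraries did not deviate together (correlation 0.01 over 10204 genes) and share only a number. With the replicate number as a block, 1342 genes were higher and 3072 lower, and 5 of the 9 genes followed were lower. By adjusted p alone, the genes higher in ferret went under the 3 scalings from 0 to 4, 4 and 4 among the 9 genes and from 0 to 3, 3 and 4 among the further receptors and coreceptors. They were 1 of the 9 genes with no filter and 1 of the receptors without either ferret library. Astrocyte markers called higher went from 1 to 2 under the 3 scalings. Oligodendrocyte lineage markers called higher went from 3 to 5, 4 and 4. Every other count of called genes, over all genes or a pathway list, stayed within 1.5 times its reported value under the alternatives run. Values near 0 FPKM, such as ferret Bmp4, are imprecise, and the depth behind them was not assessed.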

Other observations

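Several genes of the lists were matched by symbol in 1 species only and entered no comparison. Smad9, the remaining receptor-activated SMAD of the BMP branch, had 7.50 and 8.21 FPKM in the mouse libraries, below Smad1 and Smad5 in the same libraries. Olig1, a bHLH factor of the oligodendrocyte lineage, had 107 and 117 FPKM in mouse, and the bHLH factor Hes6 had 14.3 and 15.2 FPKM. The zinc finger gene that mouse names Zfp423 and ferret ZNF423, a partner of SMADs, had 2.00 and 1.93 FPKM in ferret and 5.68 and 7.22 FPKM in mouse, and was not tested.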
